A study of Homo sapiens with 6 samples.

Results

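LY2 is an estrogen receptor-positive (ER+) breast cancer cell line of MCF7 origin that grows in the presence of tamoxifen, and the study used it as a model of endocrine resistance. The 3 libraries described here are those labelled siCtrl, of 6 in the RNA-seq series; the other 3 received siRNA against CDK12 and are not compared here. The siCtrl cells received 30 nmol/L of a non-targeting siRNA pool with a lipid reagent and were harvested at 48 hours. Before transfection all cells had been kept in phenol red-free, charcoal-stripped medium with 4-hydroxytamoxifen and then deprived of serum in medium free of it, so the profile is that of transfected cells in steroid-poor culture and not of untouched LY2 cells. The study describes the 3 cultures as biological replicates of 1 line; no tumor, second line or untransfected culture is part of the description.

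The table gives FPKM, mapped fragments scaled for transcript length and for the total of the library, for 17939 genes. Because of the length scaling, levels of different genes can be set side by side within a library. A mean of at least 1 FPKM is used as the working limit for a listed transcript, and 11503 genes (64.1%) reached it. The methods of the study state a general figure for clean reads per sample. The depth of each library was not recovered, because the values are not counts. Values for single libraries are given in the order of replicates 1, 2 and 3, and means carry the SD over the same libraries (n = 3).

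Luminal cells of the breast line the ducts and are defined by simple epithelial keratins, E-cadherin junctions and a set of transcription factors that act with ER. FOXA1 opens chromatin at ER binding sites, GATA3 holds the luminal program, and ER itself is a nuclear receptor that turns on growth and secretory genes when estrogen binds. Basal, or myoepithelial, cells form the contractile outer layer and carry a different keratin set. In endocrine-resistant cells ER commonly stays present while growth no longer depends on its ligand.

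All 4 genes that mark the line as ER+ luminal were abundant. ESR1, which encodes ER (chromosome 6, 151656672 to 152129619, GRCh38.p14), stood at 50.2, 52.7 and 49.9 FPKM, a mean of 50.9 ± 1.58 FPKM and rank 1743 of 17939. GATA3 (chromosome 10, 8045333 to 8075198) stood at 292, 287 and 279 FPKM and ranked 214. KRT8, a keratin of simple epithelia (chromosome 12, 52897191 to 52949860), stood at 1806, 1859.9 and 1886 FPKM and ranked 13. CDH1, which encodes E-cadherin (chromosome 16, 68737292 to 68835537), stood at 147, 143 and 139.7 FPKM and ranked 507. The libraries were close for all of these genes, with coefficients of variation (CV, the SD as a share of the mean) from 2.2% to 3.1%. CDK12, the gene targeted in the other arm, was at 11.2, 10.7 and 10.3 FPKM in these control libraries.

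Of 23 luminal transcription factors listed, 21 reached 1 FPKM. The median over all 23 was 15.2 FPKM, against 4.40 FPKM for all genes of the table. XBP1, a factor of the unfolded protein response and an ER target, was highest at 730.2, 736 and 758 FPKM. SPDEF, an ETS factor of secretory epithelium, followed at 297, 323 and 325 FPKM. FOXA1 averaged 219 ± 2.78 FPKM, BHLHE40, a basic helix-loop-helix repressor, 171 ± 3.64 FPKM, TFAP2C, an AP-2 factor that acts with ER, 84.1 ± 3.03 FPKM, and its relative TFAP2A 61 ± 2.43 FPKM. ESR1 was number 8 in this order. The 14 highest factors were separated from each other, in that the libraries of the higher gene all lay above those of the lower. Only 2 of the 20 neighbouring pairs overlapped (GRHL1 with NRIP1, and CREB3L1 with EHF). The 2 factors under 1 FPKM were close to 0, TFAP2B at 0.107 FPKM and TOX3 at 0.0267 FPKM.

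Basal and epithelial-mesenchymal transition (EMT) factors were sparse by the same measure. Of 18, 6 reached 1 FPKM and 3 were listed at 0 in every library, namely SNAI2, TWIST1 and SOX10. STAT3, a signal-dependent factor that is not restricted to basal cells, was at 25.2 ± 1.13 FPKM and was the only factor of the list above 10 FPKM. TP63, the defining basal factor, averaged 2.05 ± 0.085 FPKM, and ZEB1 and ZEB2, repressors of E-cadherin, averaged 0.0633 FPKM and 0.0633 FPKM. Of 25 factors of other lineages that were measured, 9 reached 1 FPKM and none reached 10, with FOXP3 (5.71 ± 0.325 FPKM), NKX2-1 (5.29 ± 0.425 FPKM) and GATA2 (5.15 ± 0.325 FPKM) highest and HNF4A, TCF21 and SOX17 at 0.

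Structural markers gave the same division. All 18 luminal epithelial genes reached 1 FPKM, with a median of 117 FPKM, and KRT8, KRT18 at 1159.5, 1114 and 1125 FPKM and KRT19 at 913, 921 and 937 FPKM led them. EPCAM, an epithelial adhesion molecule, averaged 241 ± 15.7 FPKM, CD24 201 ± 5.48 FPKM, and the tight junction claudins CLDN4 and CLDN3 199 ± 4.82 FPKM and 159 ± 11 FPKM. KRT7, another luminal keratin, was the lowest of the list at 1.07, 1.37 and 2.23 FPKM, and the prolactin receptor gene PRLR was next to lowest at 9.78 FPKM. Of 18 basal or myoepithelial genes 5 reached 1 FPKM. CDH3, which encodes P-cadherin, led these at 21.2 ± 0.46 FPKM, followed by the integrin gene ITGB4 at 13.1 ± 0.213 FPKM and the smooth muscle actin gene ACTA2 at 8.06 ± 0.286 FPKM, while the basal keratins KRT6A and KRT14 and the contractile gene CNN1 were listed at 0 and KRT5 averaged 0.0167 FPKM.

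Markers of other cell types were low, with named exceptions. VIM, the intermediate filament of mesenchymal cells, was at 34.5, 34.2 and 34.3 FPKM, well above the rest of its list, in which 3 of 14 genes reached 1 FPKM and LUM, THY1 and FAP were at 0. Of 12 immune markers 2 reached 1 FPKM, CD8A (3.18 ± 0.251 FPKM) and LYZ (1.34 ± 0.208 FPKM), with CD3E at 0 and PTPRC, the leukocyte antigen, at 0.0433 FPKM. Only FLT1 (1.43 ± 0.0907 FPKM) of 10 endothelial markers passed, with PECAM1, CDH5 and TEK at 0. Of 12 neural markers 6 passed, led by ENO2, a glycolytic enzyme, at 28.6 ± 0.709 FPKM and TUBB3, a beta-tubulin, at 15.9 ± 0.828 FPKM, while the chromogranin genes CHGA and CHGB stood at 0.0367 FPKM and 0.00667 FPKM. Summed over each list, the immune markers held 5.87 to 6.21 FPKM per library and the endothelial markers 1.95 to 2.12 FPKM, against 5499.8 to 5597 FPKM for the luminal epithelial genes. In bulk RNA a few cells with much of a transcript and many cells with little of it cannot be told apart.

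**Figure D1:**
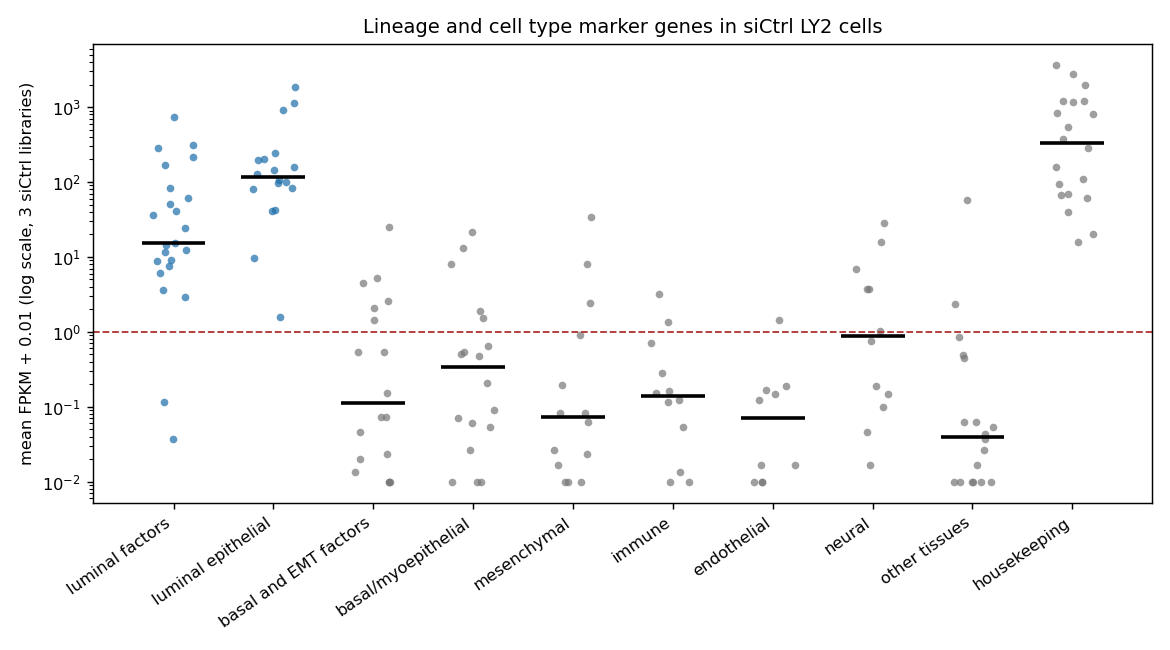
Each point is the mean FPKM plus 0.01 of a marker gene over the 3 siCtrl libraries, on a log axis, grouped by list, with the list median as a black bar and 1 FPKM as a dashed line. The luminal epithelial median is 117 FPKM and that of the luminal factors 15.2 FPKM, while the basal, mesenchymal, immune, endothelial, neural and other-tissue medians all lie under 1 FPKM.

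HBA1, an alpha-globin gene, was an exception of another kind. It was at 52.3, 60.6 and 58.9 FPKM while its near-identical copy HBA2 was at 0 in every library, and the beta-globin gene HBB was at 0 as well. The copies can share reads, so which of them the transcript comes from is uncertain, and an exact 0 in this table can be a failed estimate. All 20 housekeeping genes checked reached 10 FPKM, with a median of 332 FPKM and the lowest, TBP, at 15.6 ± 0.787 FPKM. Of the other 15 tissue-restricted genes only APOA1, an apolipoprotein gene, reached 1 FPKM (2.37 ± 0.341 FPKM), and TTR, AMY2A and DDX4 were also listed at 0.

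RefSeq promoter sequence (250 bases before to 50 bases after the start, GRCh38.p14) was matched by gene ID for 14300 of the genes, and its letters varied with level. The ratio of observed to expected CG pairs, which is near 1 in CpG islands and low in most of the genome, had a median of 0.325 for genes listed at 0, 0.545 for genes under 1 FPKM, 0.825 from 1 to 10 FPKM, 0.866 from 10 to 100 FPKM and 0.874 at 100 FPKM or more. The letters GGGCGG, a binding sequence of SP factors, were found on either strand in 33.1%, 48.3%, 69.2%, 73.7% and 72.3% of these classes, and in 62.6% of all matched promoters. TATAAA, the core of the TATA box, went the other way over most of the range, at 18.9%, 12.3%, 6.08% and 4.23%, but was at 8.47% in the highest class, and at 8.22% overall. CCAAT, bound by NF-Y, changed little, between 33.4% and 40.5%, with 36.3% overall. The full palindromic estrogen response element, searched on both strands, was in 4 of the 14300 windows only and could not be set against level. These are counts of letters in a fixed window around 1 start per gene, which need not be the start that LY2 cells use.

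The windows of 4 genes show the range. XBP1 and GSTP1 are abundant genes with many CG pairs in the window, and KRT8 is an abundant gene whose window has few. SULT1E1, which encodes the enzyme that inactivates estrogen by sulfation, is listed at 0. Matches to the 3 short motifs above, on either strand, are in capitals, and each sequence is given 5′ to 3′ on the strand of its gene.
XBP1: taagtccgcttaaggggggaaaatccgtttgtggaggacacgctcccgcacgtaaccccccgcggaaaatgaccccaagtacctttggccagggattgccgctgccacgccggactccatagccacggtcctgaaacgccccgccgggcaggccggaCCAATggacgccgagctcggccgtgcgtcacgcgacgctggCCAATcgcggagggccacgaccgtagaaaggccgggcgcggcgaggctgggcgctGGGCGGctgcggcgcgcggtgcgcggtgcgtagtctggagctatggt
GSTP1: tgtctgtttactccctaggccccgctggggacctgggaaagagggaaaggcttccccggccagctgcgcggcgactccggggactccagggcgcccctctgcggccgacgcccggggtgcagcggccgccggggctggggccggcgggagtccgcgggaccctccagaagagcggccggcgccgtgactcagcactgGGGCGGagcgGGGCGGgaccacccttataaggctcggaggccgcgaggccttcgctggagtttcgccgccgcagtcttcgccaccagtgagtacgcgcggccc
KRT8: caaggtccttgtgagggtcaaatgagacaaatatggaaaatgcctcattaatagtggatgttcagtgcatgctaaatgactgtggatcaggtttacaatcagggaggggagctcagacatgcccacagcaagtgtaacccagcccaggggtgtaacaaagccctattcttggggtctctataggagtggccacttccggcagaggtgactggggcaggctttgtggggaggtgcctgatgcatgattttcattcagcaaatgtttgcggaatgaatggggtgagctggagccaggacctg
SULT1E1: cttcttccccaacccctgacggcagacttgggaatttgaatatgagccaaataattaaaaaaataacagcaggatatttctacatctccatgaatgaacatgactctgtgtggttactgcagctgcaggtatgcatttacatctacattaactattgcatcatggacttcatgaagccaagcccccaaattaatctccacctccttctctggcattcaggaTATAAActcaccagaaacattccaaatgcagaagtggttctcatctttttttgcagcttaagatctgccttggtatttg
The XBP1 window (chr22:28800520-28800819, minus strand) holds 40 CG pairs, a ratio of 1.13, with CCAAT at 2 places and GGGCGG at 1. The GSTP1 window (chr11:67583562-67583861, plus strand) holds 36 CG pairs, a ratio of 0.879, and GGGCGG at 2 places. The KRT8 window (chr12:52926420-52926719, minus strand) has 2 CG pairs, a ratio of 0.111, and none of the searched letters. KRT8 ranked 13 by level, but this window lies inside the gene span given above. It may not hold the start that LY2 cells use, so the promoter of KRT8 in these cells is uncertain. The SULT1E1 window (chr4:69860096-69860395, minus strand) has 1 CG pair, a ratio of 0.0850, and TATAAA at 1 place.

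Nuclear receptors are transcription factors that bind steroids, retinoids, fatty acids or no known ligand, and 24 of the 46 in the table reached 1 FPKM. ESR1 was not the highest. NR2F6, an orphan receptor, stood at 72.6, 75.8 and 76.8 FPKM and RARA, the retinoic acid receptor alpha gene and an ER target, at 62.5, 66 and 65.4 FPKM, in each library above ESR1. NR1H2, an oxysterol receptor, averaged 45.2 ± 0.68 FPKM, and ESRRA, an ER-related orphan receptor, RARG, and VDR, the vitamin D receptor, averaged 27.1 ± 0.308 FPKM, 26.8 ± 1.06 FPKM and 26.7 ± 0.307 FPKM, with ranges that overlapped. NR4A1, which is induced within minutes of a stimulus, had the widest spread, at 27, 38.1 and 42.4 FPKM. NR3C1, the glucocorticoid receptor, was at 10.6 ± 0.637 FPKM. PGR, the progesterone receptor and a classical ER target, stood at 0.25, 0.34 and 0.23 FPKM, and ESR2, which encodes ER beta, at 0.25, 0.29 and 0.13 FPKM. HNF4A, NR5A1, NR1I3, NR1I2 and NR2E1 were at 0.

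Apart from PGR, the 29 other members of a 30-gene list of ER targets all reached 1 FPKM, with a median over the list of 24.0 FPKM. TFF1, a secreted trefoil peptide, ranked 8 of all genes in the table at 1916, 2028 and 2079 FPKM. CTSD, a lysosomal protease, averaged 286 ± 12.9 FPKM, FKBP4, a cochaperone of steroid receptors, 219 ± 2.92 FPKM, IGFBP4 187 ± 5.23 FPKM, TPD52L1 135 ± 3.12 FPKM and CCND1, cyclin D1, 112 ± 4.13 FPKM. GREB1, a coregulator induced by ER, was lower at 13.2 ± 0.568 FPKM, and BCL2, an antiapoptotic gene, was at 2.26 ± 0.114 FPKM. The list includes genes that other signals also drive, and no estrogen-treated sample was set beside these libraries.

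Receptor tyrosine kinases pass growth signals from outside the cell, and 28 of 58 (48.3%) reached 1 FPKM, against 64.1% of all genes. The collagen receptor DDR1 was highest at 209, 217 and 219 FPKM, followed by FGFR4, a fibroblast growth factor receptor, at 102, 111 and 104 FPKM, and by the ephrin receptor EPHB4 at 53.6 ± 0.921 FPKM. ERBB3 and ERBB2 averaged 40.4 ± 0.471 FPKM and 34.2 ± 1.34 FPKM, in that order in every library, and RET, the receptor for glial-derived ligands and an ER target, 27.8 ± 0.71 FPKM. From RYK (17.4 ± 0.283 FPKM) downwards neighbours mostly overlapped, as 15 of 27 neighbouring pairs in the list did. EGFR was at 0.65, 0.59 and 0.63 FPKM, IGF1R, the insulin-like growth factor receptor, at 0.89, 0.92 and 0.89 FPKM, INSR at 0.793 FPKM and ERBB4 at 1.56 FPKM. Listed at 0 were 7 receptors, among them ALK and ROS1, and AXL, a marker of mesenchymal states, averaged 0.09 FPKM. By the annotation in the table, 52 of 276 genes (18.8%) with G-protein coupled receptor activity reached 1 FPKM and 92 were at 0, the highest being the adhesion receptor ADGRG1 at 113 ± 1.37 FPKM.

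**Figure D2:**
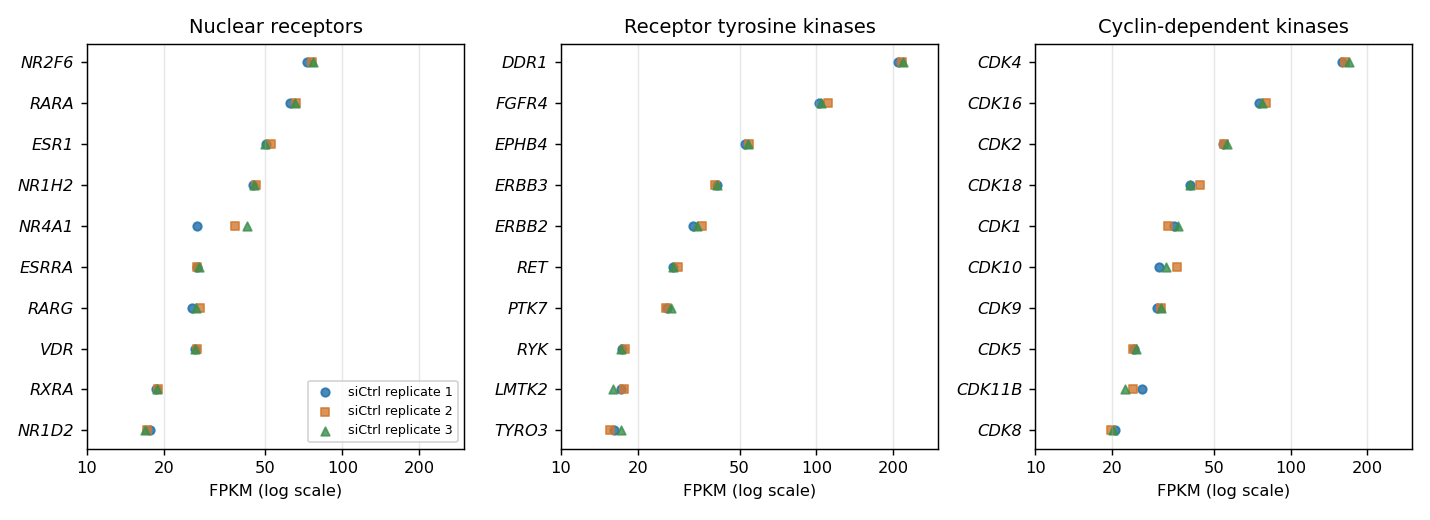
FPKM on a log axis of the 10 highest nuclear receptors, receptor tyrosine kinases and cyclin-dependent kinases, with a symbol for each of the 3 siCtrl libraries. DDR1 and CDK4 stand above their classes at 215 and 164 FPKM, ESR1 comes after NR2F6 and RARA among nuclear receptors at 50.9 FPKM, and NR4A1 shows the widest gap between libraries.

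Cyclin-dependent kinases (CDKs) drive the cell cycle and transcription, and 20 of 21 reached 1 FPKM, with CDK15 at 0. CDK4, the partner of D-type cyclins, was highest at 159, 163 and 169 FPKM. Its paralogue CDK6 was at 1.94, 1.93 and 1.8 FPKM. CDK16 averaged 77.4 ± 2.41 FPKM, CDK2 55.4 ± 1.04 FPKM and CDK1, the mitotic kinase, 34.8 ± 1.59 FPKM. Of the transcriptional kinases, CDK9 stood at 30.7 ± 0.5 FPKM, CDK13 at 16 ± 0.62 FPKM, CDK7 at 14.6 ± 0.875 FPKM and CDK12 at 10.7 ± 0.435 FPKM; CCNK, the cyclin of CDK12 and CDK13, stood at 62.9 ± 0.874 FPKM. The near-identical genes CDK11A and CDK11B (14.7 ± 0.901 FPKM and 24.3 ± 1.84 FPKM) can share reads and their split is uncertain.

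Cyclins and inhibitors were uneven within families. Of 24 cyclins 22 reached 1 FPKM, CCNI (126 ± 4.98 FPKM) and CCND1 highest, with CCND3 at 68.4 ± 3.01 FPKM and CCND2 at 0.00667 FPKM. CDKN1A, which encodes the inhibitor p21, was at 104, 104 and 112 FPKM and CDKN1B, p27, at 24.4 ± 0.981 FPKM, while CDKN2A, which encodes the CDK4 inhibitor p16, was at 0.11, 0.06 and 0.05 FPKM, the lowest of the 24 inhibitors and tumor suppressors listed. RB1, which holds back entry into S phase, averaged 11.5 ± 0.227 FPKM. All 20 proliferation genes exceeded 10 FPKM, with a median of 82.0 FPKM. MCM7 of the replicative helicase was highest at 324 ± 4.17 FPKM, and the cell cycle factor MYBL2 and the ubiquitin-conjugating enzyme UBE2C stood at 207 ± 3.18 FPKM and 143 ± 3.14 FPKM, with MKI67, the Ki-67 antigen gene, at 33.1 ± 1.78 FPKM.

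Of 59 signalling kinase genes, catalytic and regulatory subunits included, 53 reached 1 FPKM. AKT1 was highest at 351, 356 and 366 FPKM, with AKT2 at 29.7 ± 1.03 FPKM. The mitotic kinase gene PLK1 averaged 178 ± 5 FPKM, MAP2K2 of the ERK pathway 124 ± 3.38 FPKM and MAPK3, which encodes ERK1, 99.9 ± 2.31 FPKM, close to the regulatory subunit gene PIK3R2 at 102 ± 3.2 FPKM. PIK3CA, the catalytic PI3 kinase gene often mutated in ER+ tumors, was at 3.76 ± 0.314 FPKM and PIK3CB at 11.5 ± 0.0153 FPKM, while PIK3CG was at 0. RPS6KB1, the S6 kinase gene, stood at 88.4 ± 2.15 FPKM. LCK and BTK, kinases of lymphocytes, were at 0.143 FPKM and 0.05 FPKM. By annotation, 360 of 498 genes (72.3%) tied to protein kinase activity reached 1 FPKM, near the 64.1% of all genes. That class also takes in chaperones and cyclins.

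Of 42 listed genes of secreted and secretory-pathway proteins 26 reached 1 FPKM and 10 reached 100. After TFF1 came CALR, a chaperone of the endoplasmic reticulum, at 378 ± 6.06 FPKM, AGR2, a disulfide isomerase needed for mucin secretion, at 355, 356 and 369.9 FPKM, CTSD, CLU (245 ± 3.45 FPKM), the cystatin gene CST3 (219 ± 12.1 FPKM) and SPINT2, a protease inhibitor (211 ± 7.15 FPKM). TFF3, a trefoil gene of the same cluster, stood at 2.33, 2.35 and 2.48 FPKM, and TFF2 was at 0. The secretoglobins SCGB2A2, SCGB2A1 and SCGB1D2, among them mammaglobin, were listed at 0 too, and LTF, lactoferrin, and LCN2 averaged 0.00667 FPKM and 0.33 FPKM. Genes annotated to the extracellular region or space reached 1 FPKM in 741 of 1810 cases (40.9%), below the 64.1% of all genes.

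Among ligands, a few stood far above their families. BMP7 was at 231, 228 and 231 FPKM, against BMP4 at 24.6 ± 0.543 FPKM. MIF, a cytokine that most cells make, was at 1648 ± 79.3 FPKM. TGFB1 averaged 96.8 ± 3.4 FPKM, DKK1, a WNT antagonist, 85.6 ± 1.58 FPKM and AREG, an EGFR ligand and ER target, 45.6 ± 1.09 FPKM. WNT7B (10.2 ± 0.129 FPKM) was the only WNT gene of 18 above 10 FPKM, although all 9 frizzled receptor genes reached 1 FPKM, with FZD6 at 40.9 ± 0.941 FPKM. CXCL16 led 33 chemokines at 41 ± 1.85 FPKM, followed by CXCL12 at 10.7 ± 0.436 FPKM and CCL5 at 8.62 ± 1.11 FPKM, and 13 chemokines were at 0. IGFBP2 and IGFBP5, binding proteins of insulin-like growth factors, averaged 80.5 ± 3.86 FPKM and 66.3 ± 0.818 FPKM, while IGFBP7 was at 0. EGF itself was at 0.0267 FPKM. The highest membrane-type metalloproteinase genes were MMP15 at 21.7 ± 0.247 FPKM and MMP17 at 10.2 ± 0.08 FPKM, and of 43 collagens only COL9A3 (12 ± 0.14 FPKM) passed 10 FPKM.

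Steroid-converting enzymes bear on the hormone that reaches ER. HSD17B10, a mitochondrial dehydrogenase, was at 169 ± 8.15 FPKM, HSD17B4 at 44.4 ± 1.4 FPKM and CYP1B1, which hydroxylates estradiol, at 34.4 ± 1.55 FPKM. CYP19A1, the aromatase gene, was at 0.04, 0 and 0.04 FPKM, STS, which frees estrone from its sulfate, at 3.58 ± 0.277 FPKM, and SULT1E1 at 0 together with CYP11A1, HSD3B1, HSD3B2, AKR1C4 and UGT1A1. In all, 21 of 37 genes of this list (56.8%) reached 1 FPKM, against 64.1% of all genes.

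Detoxifying enzymes included 3 of the more abundant transcripts of the table. GSTP1, a glutathione transferase that is often silenced in ER+ lines, stood at 289, 298 and 329.6 FPKM, the quinone reductase NQO1 at 276, 260.3 and 282 FPKM and MGST1, a microsomal glutathione transferase, at 149 ± 2.85 FPKM. GSTM1 was listed at 0. Of the efflux pumps, ABCC5 averaged 57.6 ± 0.951 FPKM, ABCC1 14.9 ± 0.392 FPKM and ABCG2 2.82 ± 0.367 FPKM, while ABCB1, which encodes P-glycoprotein, was at 0, 0 and 0.01 FPKM. Of 353 solute carriers 189 (53.5%) reached 1 FPKM, against 64.1% of all genes. The mitochondrial ADP/ATP carrier SLC25A5 (569 ± 28 FPKM) and the amino acid transporter SLC7A5 (472 ± 4.99 FPKM) were highest of these. SLC3A2, the partner subunit of SLC7A5, was at 218 ± 8.86 FPKM.

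HOX genes, which record position along the body axis, were unequal between clusters. In the HOXC cluster on chromosome 12, 8 of 9 genes reached 1 FPKM and the highest lay towards its 5′ end, HOXC10 at 47.5, 49.6 and 51.8 FPKM, HOXC13 at 27.4, 28.6 and 29.1 FPKM and HOXC11 at 12.4, 11.3 and 10.7 FPKM, with HOXC12 between them lower at 4.19 ± 0.55 FPKM. In HOXB 2 of 9 passed, and HOXB7 at 23.9, 20.5 and 22.4 FPKM stood far above HOXB6 at 1.1 ± 0.175 FPKM, HOXB8 at 0.02 FPKM and the rest. In HOXA 5 of 11 passed, none above 3.74 FPKM, the mean of HOXA4. No HOXD gene reached 1 FPKM, the highest being HOXD8 at 0.497 ± 0.0462 FPKM. Other developmental families were likewise carried by few members. TBX2 averaged 88.2 ± 2.22 FPKM, against 2.95 ± 0.156 FPKM for TBX3, SOX12 32.7 ± 0.522 FPKM and SOX4 12.5 ± 0.781 FPKM, with SOX9 at 0.143 FPKM, and PAX9, at 7.47 ± 0.0819 FPKM, was the only PAX gene above 2 FPKM.

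**Figure D3:**
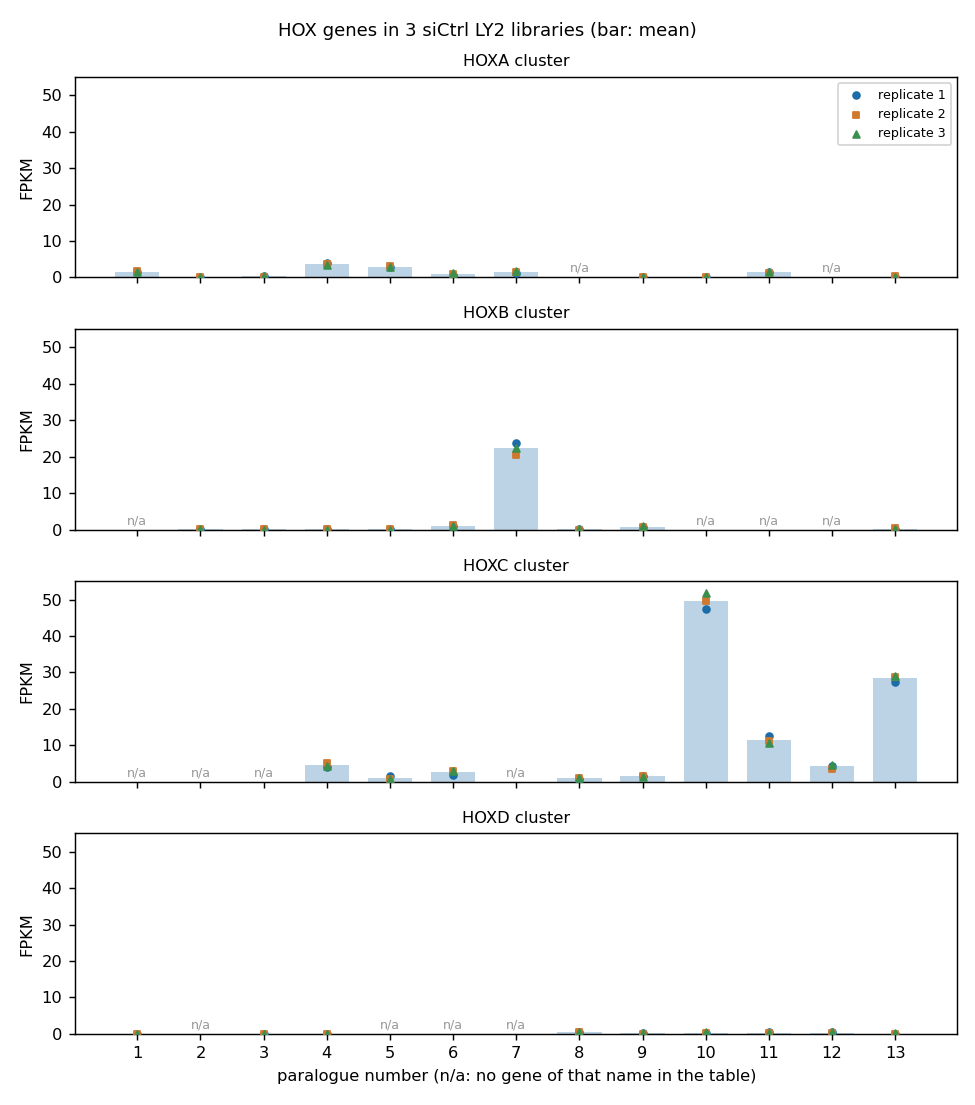
FPKM of the HOX genes in the table, by cluster and paralogue number, on a shared linear axis from 0, with bars for the mean and a symbol for each of the 3 siCtrl libraries. HOXC10, HOXC13, HOXB7 and HOXC11 stand out, with means of 49.6, 28.4, 22.3 and 11.5 FPKM, and the HOXD panel is close to 0 throughout.

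At the other end of the scale, 1674 genes (9.33%) were listed at 0 in all 3 libraries and a further 4762 lay between 0 and 1 FPKM, together 0.233% of the FPKM sum. Of 102 olfactory receptor genes 60 were at 0 and 1 reached 1 FPKM, OR7E24 at 8.33 ± 1.49 FPKM. All 16 bitter taste receptor genes were under 1 FPKM. Of 54 keratins 8 passed and 19 were at 0. KRT80 and KRT13 came after KRT8, KRT18 and KRT19, at 60.8 ± 2.7 FPKM and 54.7 ± 0.947 FPKM. Of 54 cytochrome P450 genes 11 passed, led by CYP51A1 of cholesterol synthesis at 66.6 ± 0.917 FPKM. Of 35 genes of the interleukin family and its receptors 4 passed, with IL4R, a receptor, highest at 7.43 ± 0.516 FPKM. The germline genes of the MAGEA, MAGEB and MAGEC groups, which are silent in most adult tissue, were low in 20 of 22 cases, but MAGEA1 stood at 38.9, 38.7 and 39.4 FPKM while its neighbours in the family MAGEA3 and MAGEA6 averaged 0.627 FPKM and 0.277 FPKM.

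Of the 25 highest genes 11 encode cytosolic ribosomal proteins, with RPS2 highest at 4343, 4359 and 4674 FPKM and RPL41 at 3418 ± 126 FPKM. HSPB1, a small heat shock protein gene known for high levels in ER+ cells, ranked 2 at 3551, 3770.0 and 3912 FPKM, followed by ACTB at 3667 ± 28.6 FPKM, then GAPDH at 2742 ± 60.3 FPKM, FTH1, the ferritin heavy chain, at 2591 ± 49.4 FPKM and TUBA1B at 2189 ± 61.4 FPKM. EEF1A1 and RACK1 of the translation machinery averaged 1954 ± 49.5 FPKM and 1942 ± 52.6 FPKM, ALDOA 1900.5 ± 30.1 FPKM, ACTG1 1681 ± 32.7 FPKM and PTMA 1308 ± 48.6 FPKM. MTRNR2L2 (1918 ± 143 FPKM) is a nuclear copy of mitochondrial ribosomal RNA sequence, and its value is uncertain for that reason. The 41 genes at 1000 FPKM or more held 15.8% of the FPKM sum, the 768 genes at 100 FPKM or more 54.7%, and the 10 highest between 6.23% and 6.41% per library.

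Genes of different chromosomes differed in level. Chromosome 16 had the highest median at 12.2 FPKM over 788 genes, followed by chromosome 14 at 9.82, chromosome 17 at 6.91 and chromosome 20 at 6.66 FPKM, and the lowest were chromosome X at 1.91, chromosome 18 at 2.68 and chromosome 4 at 2.83 FPKM. The median of chromosome 16 was 12.1, 12.4 and 12.3 FPKM in the 3 libraries, and that of X 1.92, 1.91 and 1.87 FPKM. The share of genes at 10 FPKM or more was 53.8% on chromosome 16, again the highest, but X, at 29.1%, was number 18 of 23 by this measure, and chromosome 18 was lowest at 26.3%. Copy number was not measured, and gene content differs between chromosomes.

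Runs of 25 neighbouring genes picked out local groups. The highest median, 44.0 FPKM, belonged to a run on chromosome 11 (65879837 to 66438848, GRCh38.p14) from CTSW to MRPL11, with RAB1B at 328 ± 7.94 FPKM and BANF1 at 235 ± 16.4 FPKM, and a second run on chromosome 11 with a median of 36.5 FPKM (66857064 to 67612554) held GSTP1. On chromosome 17, the run from SEPT4 to TBX2 (58520256 to 61409466), in a segment that is frequently gained in breast cancer, had a median of 39.1 FPKM, with 18 of 25 genes at 10 FPKM or more, against 36.9% of all genes of the table; the runs were picked for their medians. It was led by TRIM37, a ubiquitin ligase, at 224, 224 and 220.1 FPKM, the recombination gene RAD51C at 154, 144 and 150.0 FPKM and CLTC, the clathrin heavy chain, at 146 ± 4.63 FPKM, and included RPS6KB1, BCAS3 at 90 ± 1.45 FPKM, PPM1D, a phosphatase of the DNA damage response, at 57.2 ± 2.79 FPKM and TBX2, beside CA4 at 0.913 FPKM and SEPT4 at 0.26 FPKM. The other runs among the 8 highest were on chromosomes 1, 6, 19 (2 runs) and X, with medians from 36.8 to 43.1 FPKM.

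The 3 libraries were close to each other. Pearson r of log2(FPKM + 0.1) over the 11503 genes was 0.9959, 0.9959 and 0.9965 in the 3 pairs; these are correlations across genes, which are not independent replicates, and they carry no p. Between 11488 and 11530 genes reached 1 FPKM per library, and the FPKM sum ranged from 450987 to 461038. The median CV was 4.40% at a mean of 1 FPKM or more. It depended on level, at 22.9% from 0.1 to 1 FPKM, 7.78% from 1 to 5 FPKM, 4.95% from 5 to 10 FPKM, 3.76% from 10 to 50 FPKM and 3.10% at 100 FPKM or more. Only 34 genes at 1 FPKM or more had a highest library at least 2 times the lowest, and among the 8673 genes at 5 FPKM or more there were 4.

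Among those 4 were AKR1C1 and AKR1C3, neighbouring aldo-keto reductases that convert steroids and prostaglandins, which stood at 3.41, 2.7 and 8.95 FPKM and at 3.78, 3.35 and 7.97 FPKM, both highest in replicate 3. Their relative AKR1C2 stood at 16.1, 14.5 and 18.5 FPKM. The sum of AKR1C1 and AKR1C3 had a CV of 59.4%. AKR1C2 is not part of that sum. Related genes can share reads, so the split among these relatives is uncertain, and its part in the spread was not tested. YJEFN3 (CV 28.7%), the read-through loci COMMD3-BMI1 (25.7%) and NEDD8-MDP1 (23.3%), LGALS3 (21.1%), CEP63 (20.9%), SVBP (20.6%) and the histone genes HIST1H4H (21.8%) and HIST2H2BF (20.6%) followed, together with FOS, NR4A1 and EGR1. At the steady end, ATP6V0A2 was at 7.08 FPKM in every library, EEF1G at 1033, 1034 and 1034 FPKM, and CCDC22, USP30, BTF3L4, NACC1, CENPH, PIK3CB, MFSD3 and PUS1 had CVs from 0.0663% to 0.189%.

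Immediate early genes, which respond to growth factors and stress within minutes, were highest in replicate 3 for 15 of 20 members and lowest in replicate 1 for 15 of 20. Of all 11503 genes at 1 FPKM or more, 3877 were highest in replicate 3 and 3927 lowest in replicate 1. EGR1, a zinc finger factor, stood at 101, 136 and 158 FPKM, FOS at 12.2, 15 and 19.4 FPKM, JUNB at 186, 209 and 229 FPKM and IER2 at 90.5, 104 and 115 FPKM. The median deviation of the list from the mean of the 3 libraries, in log2(FPKM + 0.1), was -0.17, 0.02 and 0.15. Interferon-stimulated genes, the targets of antiviral signalling, were lowest in replicate 2 for 25 of 29 members at 1 FPKM or more, with median log2 deviations of 0.07, -0.13 and 0.08. Of all 11503 genes at that level, 3546 were lowest in replicate 2. IFI27 stood at 42.4, 31.1 and 39.4 FPKM, IFI6 at 239, 225 and 278 FPKM and ISG15 at 262, 226 and 264 FPKM, while BST2, the highest of the list, differed little at 297, 291 and 307 FPKM. Housekeeping genes, for comparison, had median log2 deviations of 0.01, -0.02 and 0.02, and the luminal factors 0.02, 0.02 and -0.02. Other lists differed as widely as the interferon genes, among them the 10 collagens at 1 FPKM or more, with -0.10, 0.14 and -0.04. What set these libraries apart was not tested.

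**Figure D4:**
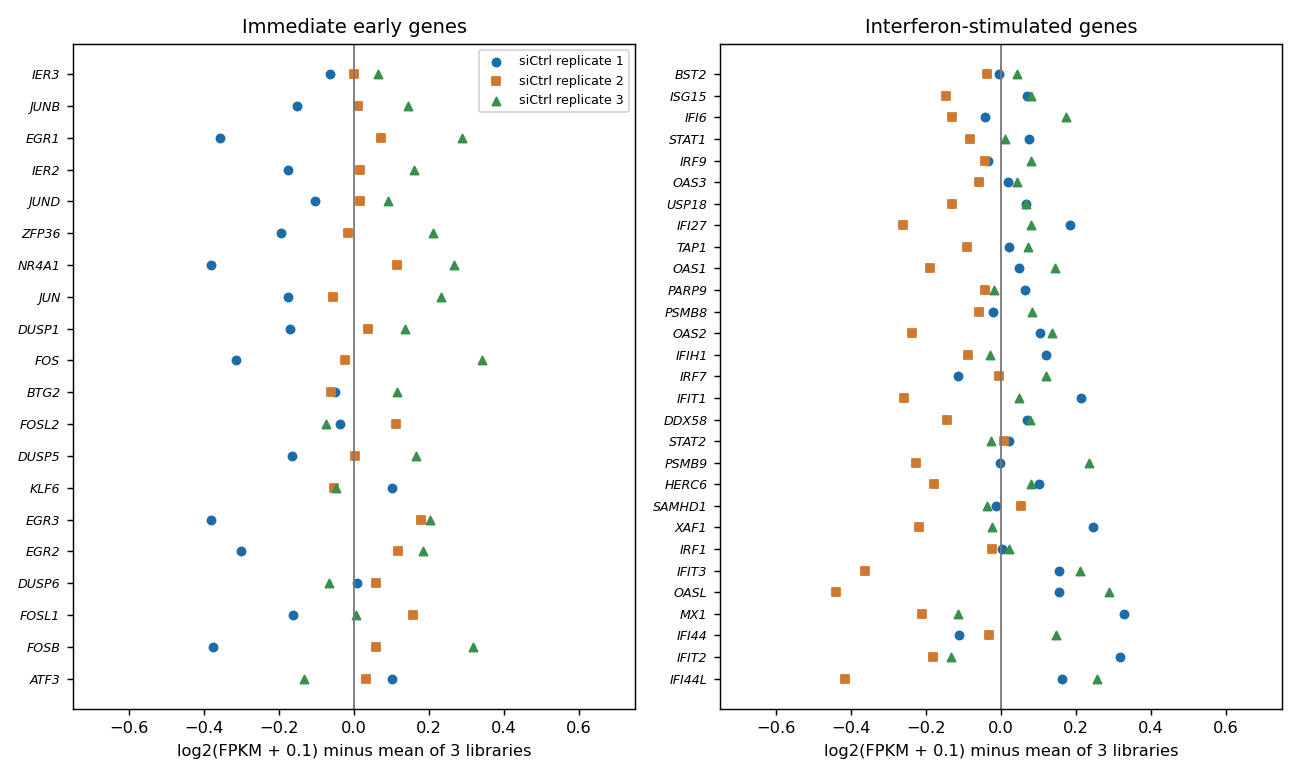
Deviation of each library from the mean of the 3 siCtrl libraries, in log2(FPKM + 0.1), for the immediate early genes and the interferon-stimulated genes at 1 FPKM or more. Replicate 1 is lowest for 15 of 20 immediate early genes and replicate 2 for 25 of 29 interferon-stimulated genes. Of all 11503 genes at 1 FPKM or more, 3927 are lowest in replicate 1 and 3546 in replicate 2.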

How the data were processed

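Total RNA of 3 siCtrl cultures of LY2 cells was sequenced by a company with paired reads on the BGISEQ-500 platform. The methods describe cleaning with SOAPnuke, alignment to GRCh38 with Bowtie2 and quantification with RSEM. The values deposited by the authors are FPKM, for each gene in each library. The authors ran DESeq2 on read counts for their own comparison, which is not used here. RSEM assigns fragments in fractions, so whole fragments and depth were not recovered and no counting interval is given. Columns were matched to libraries by name.

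Levels were summarised as mean, SD and CV over the 3 libraries with pandas 2.3.3 in Python 3.11.15. No test was made, because 1 group is described. Gene lists were taken from general knowledge, and the part described and the lists were chosen with earlier results of these data known. Named genes were the 25 highest, the higher members and those at 0 of each list and family, and the 15 most and 10 least variable at 5 FPKM or more; a few further list members, and genes of the chromosome runs, were named after their values were seen. Positions came from RefSeq GRCh38.p14, matched by gene ID for 17904 of 17939 genes. Alternatives were other thresholds, scalings and filters and leaving out each library. Some members of the lists are counted but not reported by name here.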

Additional observations from a re-analysis of the deposited data

How the results depend on the processing

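Genes under 0.1 FPKM in every library numbered 3543, against 1674 at 0, so the count of silent genes rests on the limit chosen. The median CV was 6.15% with no filter on low values, 3.84% at a mean of at least 5 FPKM and 4.61% after equal-sum scaling, against 4.40%. It was between 3.50% and 3.82% without each library in turn. Genes with a highest library at least 2 times the lowest numbered 2829 with no filter and 4 at 5 FPKM, against 34. They numbered between 15 and 21 with a library left out. A fall is built into both measures when a library is left out, because 2 values spread less than 3. The lower values therefore describe no single library. The lowest r between libraries was 0.9973 with a pseudocount of 1, 0.9941 with 0.01 and 0.9970 at 5 FPKM or more. Without ribosomal protein genes the 100 highest genes held 21.5% of the sum, against 25.7%. On the TPM scale, where 1 unit is a lower bar, 9 basal or myoepithelial genes passed in place of 5, and 4 genes of other tissues in place of 2; the immune markers that passed numbered 3 in place of 2, on the TPM scale and at 0.5 FPKM, and the counts of the other lists moved by less than 1.5 times. The highest run of 50 genes had a median of 31.7 FPKM, against 44.0 for 25 genes. The difference in promoter CG ratio was 0.501 between the highest and the lowest 20% of genes by level, against 0.549 between genes at 100 FPKM or more and genes at 0. The deviations of immediate early and interferon genes, rescaled in a step chosen after seeing the data, kept their signs. No paired analysis was possible because the results come from no test. The depth of each library was not recovered. The median CV was above 20% under 1 FPKM, and what limits precision there was not tested.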

Other observations

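Further families also held both high and low members in the 3 siCtrl libraries. Of all genes of the table, 64.1% reached 1 FPKM, 36.9% reached 10 FPKM and 4.28% reached 100 FPKM. A mix of high and low members is therefore not particular to these families. Of 20 integrin genes 9 reached 1 FPKM, with ITGB5 (44.7 ± 1.26 FPKM), ITGB1 (40.3 ± 1.56 FPKM) and ITGA3 (23.4 ± 0.404 FPKM) highest. Of 19 S100 genes 11 passed, and S100A11 at 803, 824 and 894 FPKM stood well above S100A10 (249.8 ± 8.2 FPKM) and S100A6 (69.8 ± 4.96 FPKM). Of 17 ADAM protease genes 7 passed, with ADAM15 at 74.7 ± 2.98 FPKM, but only ADAMTS19 of 17 ADAMTS genes did, at 1.11 ± 0.0971 FPKM. All ephrin ligand genes but EFNA2 passed, EFNA1 being highest at 24 ± 1.43 FPKM. Of 505 zinc finger genes named ZNF, 355 (70.3%) reached 1 FPKM, near the 64.1% of all genes. Their median was 2.55 FPKM, against 4.40 FPKM for all genes, with ZNF703, a luminal repressor, at 45 ± 2.39 FPKM. Of 85 cytosolic ribosomal protein genes 82 passed. They were highest in replicate 3 in 59 cases and lowest in replicate 2 in 60 cases. Of all 11503 genes at 1 FPKM or more, 3877 were highest in replicate 3 and 3546 lowest in replicate 2. Replicate 3 also had the largest FPKM sum (461038) and replicate 2 the smallest (450987). Ribosomal protein genes took 14.4%, 14.02% and 14.6% of the FPKM sum in replicates 1, 2 and 3.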
